A study of Mus musculus with 31 samples.

Results

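The genes described here are the DNA methyltransferase genes Dnmt1, Dnmt3a, Dnmt3b and Dnmt3l together with Uhrf1, and their RNA was read in mouse embryonic stem (ES) cells with and without Srap1. The members were chosen by name, and in the RNA tables, which carry no gene names, by position: every assembled locus that overlapped the interval of a member on mouse build mm9 was taken. All 5 genes had at least 1 such locus. The loci over them numbered 14, 12, 9 and 10 in wild-type libraries 1 to 4, out of 8882 to 9295 loci in each table. In the Srap1 knockout table they numbered 39 out of 143073. The intervals were chromosome 9, 20711600 to 20757300 for Dnmt1, chromosome 12, 3806000 to 3914500 for Dnmt3a, chromosome 2, 153475100 to 153513500 for Dnmt3b, chromosome 10, 77504700 to 77526500 for Dnmt3l, and chromosome 17, 56442700 to 56463000 for Uhrf1. They were not checked against an annotation of mm9, and exons, introns and UTRs were not assigned within them.

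The series compares ES cells of wild type with ES cells labelled Srap1 KO, both of the background 129SVxC57/BL6 and derived together, and its title concerns the removal of oxidized 5-methylcytosine by a protein with a SRAP domain. Of its 31 samples, 4 wild-type and 2 Srap1 KO samples hold RNA, and because the KO tables hold the same values throughout, they count as 1. All of the cells grew on gelatin in serum with leukemia inhibitory factor, a pair of inhibitors against GSK3β and Mek, and ascorbic acid, so each group carries the same culture treatment. The RNA was depleted of ribosomal RNA. The labels name neither the clones nor the cultures behind the samples, and with 1 KO table no difference between the genotypes has a replicate check. Srap1 and ES cell markers were not examined here, so genotype and cell type rest on the labels.

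Methylation of cytosine in the pair CG (CpG) is kept up and laid down by different enzymes. Dnmt1 copies methylation onto the new strand after DNA replication, and Uhrf1, which has a SRA domain that binds hemimethylated CpG, brings Dnmt1 to those sites. Dnmt3a and Dnmt3b methylate sites that were not methylated before, and Dnmt3l, which lacks catalytic activity of its own, binds both of them and stimulates them. ES cells kept with inhibitors of GSK3 and Mek are known for low DNA methylation, and ascorbic acid is known to stimulate the Tet enzymes, which oxidize 5-methylcytosine.

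The promoters of the members are themselves DNA that these enzymes can methylate, and they differ in how many CpG they hold. RefSeq lists 12 starts for the 5 genes on GRCm38.p6, and the 250 bases before each were read. Shown are the windows of the first and the second Dnmt3l start, because the results turn on that gene, and the most CpG-rich windows of Dnmt1 and Uhrf1 for contrast. All run 5′ to 3′ on the strand of the gene, with CpG in capitals. They lie at chr10:78042037-78042286 and chr10:78049592-78049841 (plus strand), chr9:20952624-20952873 (minus strand) and chr17:56304063-56304312 (plus strand), all on GRCm38.p6.
Dnmt3l, start 1: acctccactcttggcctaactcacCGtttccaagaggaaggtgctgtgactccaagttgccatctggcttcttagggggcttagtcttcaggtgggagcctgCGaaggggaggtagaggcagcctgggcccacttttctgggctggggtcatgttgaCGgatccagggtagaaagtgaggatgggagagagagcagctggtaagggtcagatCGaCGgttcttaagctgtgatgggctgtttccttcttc
Dnmt3l, start 2: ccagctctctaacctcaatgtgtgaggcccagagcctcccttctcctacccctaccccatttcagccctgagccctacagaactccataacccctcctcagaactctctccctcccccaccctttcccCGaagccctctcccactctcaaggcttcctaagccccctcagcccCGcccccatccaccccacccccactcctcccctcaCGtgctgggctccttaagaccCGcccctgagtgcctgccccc
Dnmt1, start 3: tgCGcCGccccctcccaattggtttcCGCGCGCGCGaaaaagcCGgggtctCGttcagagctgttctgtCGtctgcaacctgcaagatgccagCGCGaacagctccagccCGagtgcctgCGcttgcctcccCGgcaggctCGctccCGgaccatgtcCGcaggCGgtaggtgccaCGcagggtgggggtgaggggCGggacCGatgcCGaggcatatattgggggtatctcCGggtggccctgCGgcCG
Uhrf1, start 2: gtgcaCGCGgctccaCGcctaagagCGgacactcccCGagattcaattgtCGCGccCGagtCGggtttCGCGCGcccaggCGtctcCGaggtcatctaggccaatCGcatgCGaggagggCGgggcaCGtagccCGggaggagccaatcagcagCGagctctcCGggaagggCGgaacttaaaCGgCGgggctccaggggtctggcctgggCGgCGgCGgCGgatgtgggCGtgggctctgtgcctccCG

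The Dnmt3l windows held 5 CpG before the first start, 4 before the second and 3 before the last. The median over 32851 RefSeq windows of the same length was 6, with quartiles of 2 and 16, so the Dnmt3l windows lay below the median but inside the quartiles. The windows of Dnmt3a, by contrast, held 38, 40 and 15 CpG, and that of Dnmt3b held 21. Dnmt1 had 2, 7 and 26 CpG before its starts, and Uhrf1 had 10 and 30. The Dnmt1 window shown held more CpG than 90.4% of all windows, and the Uhrf1 window more than 94.1%. The GC box (GGGCGG or its reverse complement CCGCCC) was present before the second Dnmt3l start, the third Dnmt1 start and every start of Dnmt3a, Dnmt3b and Uhrf1, and in 32.7% of all windows. The CCAAT box (CCAAT or ATTGG) was present before the first and the third Dnmt1 start and both Uhrf1 starts, and in 33.8% of all windows. None of the Dnmt3a, Dnmt3b and Dnmt3l windows held it. These matches describe letters only.

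Levels are given in FPKM, a count of fragments divided by transcript length and library size, with the lower and upper bounds that the authors deposited. The level of a gene in a table is that of its principal locus, the one that shares most bases with the interval. Loci were assembled separately in each table, so the same gene is cut at different places. A single locus on chromosome 17, outside Uhrf1, took 61.4% to 62.2% of the fragments that the bounds imply for the wild type, and 3.51% for the knockout. The implied fragments outside it came to 338453 to 355077 per wild-type table, against 10425958 for the knockout. FPKM is scaled to the whole library, so this locus lowers the FPKM of every other wild-type locus more than it does for the knockout. Genotype, depth and the makeup of the library differ together here and cannot be told apart. Because of this, ratios between genes inside a table are given beside the ratios between tables. At the 76 to 94 loci per pair whose ends matched, the wild-type tables differed by about the error read from the bounds. These loci are a small part of each table, picked for like ends, and do not speak for the rest. Among the members, wild-type bounds did not overlap in 2 of 6 pairs of tables for Uhrf1 and 1 of 3 for Dnmt3b. For Dnmt1 and for Dnmt3l it was 0 of 6. The wild-type tables were counted as 1 sample, so their values are given singly or as a range.

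Dnmt3l had the highest level of the 5 genes in every wild-type table and a lower one in the knockout. Its principal locus stood at 80.2 FPKM in wild-type library 1, 72.6 FPKM in library 2, 105 FPKM in library 3 and 64.2 FPKM in library 4. It stood at 26.7 FPKM in the Srap1 knockout. The knockout value lay below all 4 wild-type values, and its deposited bounds, 24.9 to 28.5 FPKM, lay below the lowest wild-type lower bound, 43.2 FPKM. How many other loci had bounds apart between the groups was not counted, so such gaps are not read as particular to any gene here. The wild-type mean of 80.5 FPKM was 3.01 times the knockout level. On the scale of log2(FPKM + 1), knockout over wild-type mean, the difference was -1.56. In RNA from a mass of cells, fewer cells with a transcript and less of it per cell cannot be told apart.

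The Dnmt3l loci were alike in extent in all tables, which was not so for the other genes. The wild-type loci were 13266 to 14165 bases wide and the knockout locus 13293 bases, at chromosome 10, 77513252 to 77526545. It was the only member locus that could be paired across all 5 tables with at least 80% of both loci shared. The wild-type loci began 7863 to 8029 bases inside the interval. RefSeq places the second start of Dnmt3l 7555 bases after the first and the last 13048 bases after it on GRCm38.p6. These positions were not converted to mm9, and the low end of the interval is not itself a RefSeq start, but of the 3 distances the second is the nearest to where the loci began. The first part of the interval was empty except in wild-type library 2, which listed a locus of 16.3 FPKM from 77504271 to 77506254, across the start of the interval. RefSeq lists Aire as the gene before Dnmt3l, and the tables carry no strand, so this locus was not assigned to either gene.

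In the knockout the 5′ end of Dnmt3l was listed apart from the rest. A locus of 228 bases, from 77512722 to 77512950, had 79.5 FPKM with bounds of 61.5 to 97.6 FPKM. This is within the range of the wild-type principal loci, which span nearly all of these bases. Taking the locus with the highest FPKM in place of the principal one therefore moved the log2 difference from -1.56 to -0.02 and ended the call. In FPKM as deposited, only the 13293-base locus behind it lay below the wild-type loci. No wild-type table lists a level for the 228 bases alone, so a part is set against wider loci here. Whether the 5′ end itself differed cannot be told. With FPKM scaled to the fragments outside the chromosome 17 locus, both knockout loci lay below the wild-type loci, the 228-base locus at 82.4 and the 13293-base locus at 27.7 against 168 to 278.

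**Figure D1:**
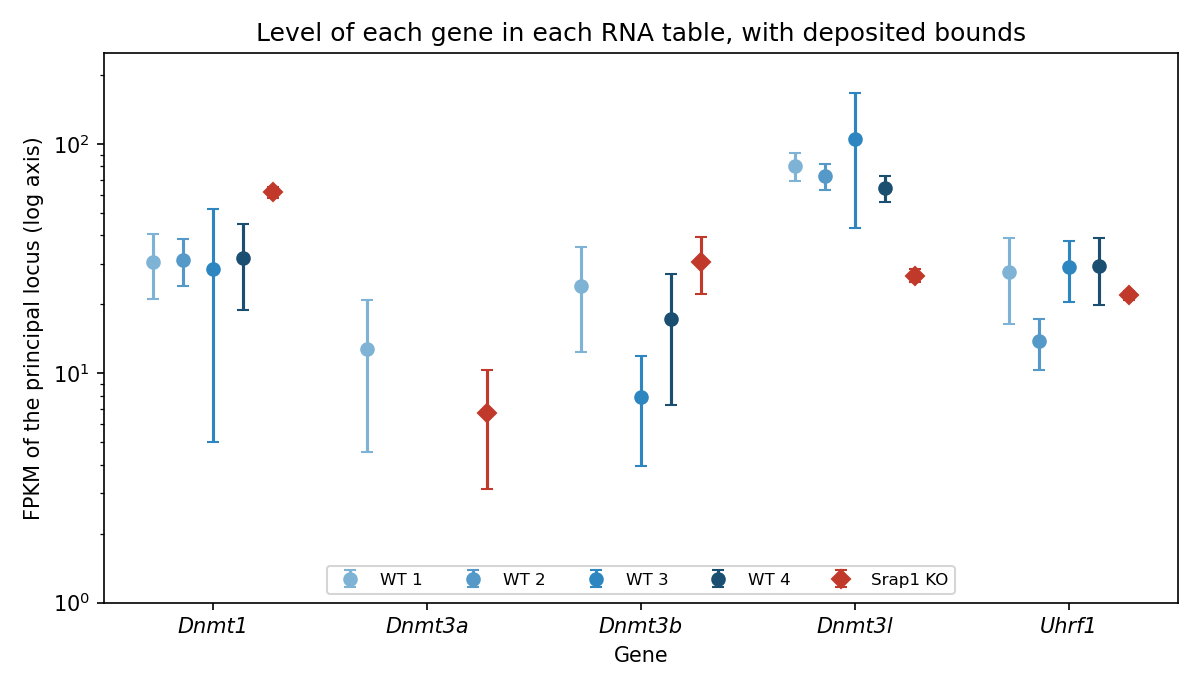
FPKM of the principal locus of each gene (vertical axis, log scale) in the 4 wild-type tables (circles) and the Srap1 knockout table (diamonds), with the deposited lower and upper bounds as bars. A gene with no locus in a table has no point. The Dnmt3l diamond at 26.7 FPKM lies below all 4 circles, and the Dnmt1 diamond at 61.7 FPKM above all 4, an order that holds for Dnmt1 in FPKM as deposited and turns when FPKM is scaled to fragments outside the chromosome 17 locus.

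Dnmt1, the maintenance enzyme, was listed at a higher FPKM in the knockout. Its principal locus stood at 30.7 FPKM in wild-type library 1, 31.2 FPKM in library 2, 28.5 FPKM in library 3 and 31.9 FPKM in library 4. The knockout had 61.7 FPKM, with bounds of 58.4 to 64.9 FPKM. The knockout value was above every wild-type value and above the highest wild-type upper bound, 52.0 FPKM. For Dnmt1 too, the share of other loci with bounds apart was not counted. The ratio to the wild-type mean was 2.02, and the log2 difference of FPKM + 1 was 0.99, just short of the size of 1 that a call required. Its direction rested on the scaling. It was 0.51 after centring on the median of paired loci, and turned to -0.32 when FPKM was scaled to the fragments outside the chromosome 17 locus.

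The difference was not uniform along Dnmt1. The gene lies on the minus strand, and every table listed a separate locus at its 3′ end. That locus had 22.9, 30.0, 23.1 and 23.5 FPKM in wild-type libraries 1 to 4. In the knockout it had 17.0 FPKM, below all 4, although its bounds of 15.9 to 18.1 FPKM overlapped those of wild-type libraries 1, 3 and 4. Scaled to the fragments outside the chromosome 17 locus it had 17.6 against 60.6 to 77.8 in the wild type, lower as well. Inside a table, where scaling plays no part, the 3′ locus had 0.735 to 0.960 times the FPKM of the principal locus in the wild type and 0.275 times in the knockout. The knockout ratio could range from 0.245 to 0.309 within the deposited bounds, and the lowest wild-type ratio within them was 0.329. The loci do not match in extent, since the knockout 3′ locus was 8714 bases wide and began below the interval, towards Eif3g in the RefSeq order, and those of the wild type were 4175 to 5071 bases wide. The part of the different cuts in this ratio was not tested.

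The extent of Dnmt1 also differed. Wild-type loci covered 59.9% to 70.3% of the interval, and the knockout loci covered 99.3%. The knockout principal locus ran from 20719995 to 20757246 on chromosome 9, up to 54 bases from the 5′ end of the interval. The wild-type principal loci ended 11036 to 15898 bases short of it. Within the knockout locus lay 7 narrower loci of 79 to 885 bases, including one of 79 bases at 1080 FPKM with bounds of 503 to 1657 FPKM. Another, of 89 bases, had 584 FPKM with bounds of 272 to 896 FPKM. In both the upper bound lay 53.5% above the value. FPKM divides by length, so at loci this narrow few fragments can give a high value. The narrowest locus listed over Dnmt1 in the wild type was 647 bases wide.

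Uhrf1, the partner of Dnmt1, had a knockout level below 3 of the 4 wild-type values and above that of library 2. Its principal locus stood at 27.6 FPKM in wild-type library 1, 13.8 FPKM in library 2, 29.2 FPKM in library 3 and 29.5 FPKM in library 4. The knockout had 21.9 FPKM, with bounds of 20.9 to 23.0 FPKM. Library 2 was low, with an upper bound of 17.3 FPKM, and its bounds did not overlap those of libraries 3 and 4. The knockout thus lay inside the wild-type range through library 2 alone. The log2 difference of FPKM + 1 was -0.18, and -0.38 without library 2. Scaled to the fragments outside the chromosome 17 locus it was -1.49, a call, while no other alternative called Uhrf1.

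The 3′ end of Uhrf1 was high relative to the rest of the gene in the knockout, where that of Dnmt1 was low. The locus there had 11.4, 13.1, 14.7 and 18.2 FPKM in wild-type libraries 1 to 4 and 26.7 FPKM in the knockout, with bounds of 25.5 to 27.9 FPKM. The knockout was above all 4 wild-type tables, whose highest upper bound was 23.7 FPKM, but with FPKM scaled to the fragments outside the chromosome 17 locus it was below all 4, at 27.7 against 30.1 to 47.4. As a ratio to the principal locus of the same table, it came to 0.412 to 0.950 in the wild type and to 1.22 in the knockout. The knockout ratio ran from 1.11 to 1.33 within the deposited bounds, and those of wild-type libraries 2 and 4 reached 1.70 and 1.19, so the groups overlapped within the bounds. The knockout locus ran from 56460703 to 56464100 with 67.6% of its width inside the interval, and RefSeq lists Kdm4b as the next gene. In wild-type library 1 a further locus with the same ends had 4.09 FPKM.

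**Figure D2:**
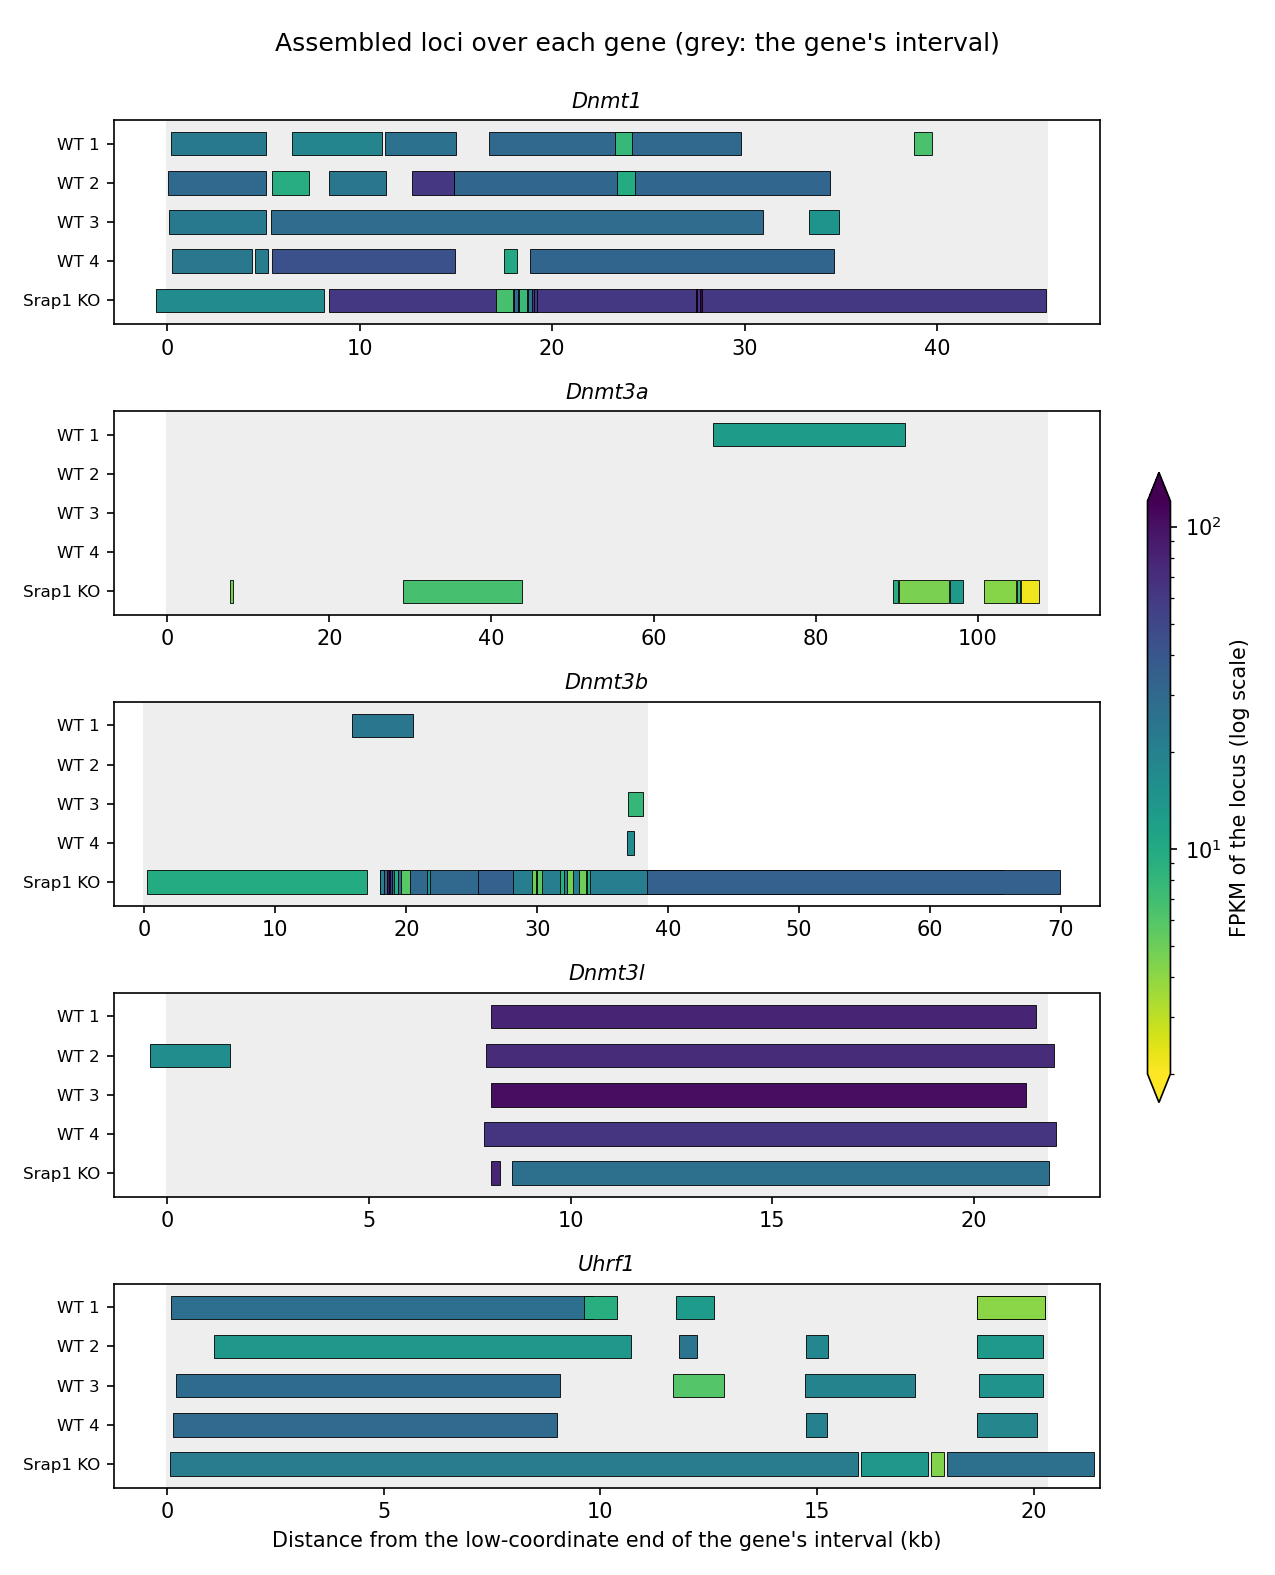
Position of every assembled locus over each gene, by table, as distance in kb from the low-coordinate end of the interval (grey), with the colour giving FPKM on a log scale. Dnmt1 runs from right to left and the other genes from left to right. Dnmt3l loci have nearly the same extent in all tables, while Dnmt3a has a wild-type locus in library 1 alone and Dnmt3b has short wild-type loci covering at most 11.9% of its interval, and knockout loci of Dnmt3b run past the interval.

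The de novo enzymes were sparsely listed in the wild type. Dnmt3a had a locus in 1 of 4 wild-type tables. It lay in library 1 from 3873303 to 3897040 on chromosome 12, with 12.7 FPKM and bounds of 4.54 to 20.9 FPKM. Libraries 2, 3 and 4 listed no locus over the 108.5 kb of the interval. Their lowest listed levels anywhere were 1.55 to 2.11 FPKM, and absence of Dnmt3a RNA cannot be inferred from them.

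In the knockout Dnmt3a had 8 loci, at 2.18 to 13.2 FPKM, which together covered 27.5% of the interval. The principal one, from 3835078 to 3849743, had 6.71 FPKM with bounds of 3.12 to 10.3 FPKM. It shares no base with the locus of wild-type library 1, so the log2 difference of -0.83 compares different parts of the gene. The knockout loci over the 3′ part, from 3895543 to 3913570, were 6 in number. RefSeq lists the noncoding genes Dnmt3aos and Gm31623 next after Dnmt3a, and without strand their RNA cannot be told apart from that of Dnmt3a.

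Dnmt3b had 1 locus in each of wild-type libraries 1, 3 and 4, and none in library 2. The locus of library 1, from 153490989 to 153495577 on chromosome 2, had 24.0 FPKM with bounds of 12.4 to 35.6 FPKM. Libraries 3 and 4 listed only a piece at the 3′ end, of 1154 bases at 7.91 FPKM and of 516 bases at 17.2 FPKM. These loci covered 1.34% to 11.9% of the interval. The wild-type values are therefore levels of different pieces of the gene.

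The knockout loci covered 97.0% of Dnmt3b, in 16 loci. The principal one had 30.7 FPKM, with bounds of 22.1 to 39.3 FPKM, and ran from 153493104 to 153540722, with 42.8% of its width inside the interval. Another, at 34.5 FPKM, had 29.0% of its width inside. RefSeq lists Gm17897, Dnmt3b-ps1, a copy of Dnmt3b listed as a pseudogene and also named Dnmt3c, and Mapre1 after Dnmt3b, so these values may hold RNA of those genes and are uncertain for Dnmt3b. Loci that stay inside the interval had lower levels, 9.85 FPKM over the 5′ part (153475274 to 153492107) and 21.0 FPKM over the 3′ part (153503246 to 153513490). The log2 difference was 0.87 with the principal locus and -0.68 with loci at least 50% inside the interval, so its direction turned with the choice of locus. It also turned with the scaling, to -0.43 for FPKM scaled to fragments outside the chromosome 17 locus.

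The order of the genes differed between the groups. By wild-type mean it was Dnmt3l at 80.5 FPKM, Dnmt1 at 30.6, Uhrf1 at 25.0, Dnmt3b at 16.4 over 3 tables and Dnmt3a at 12.7 in 1 table. Dnmt3l stood above every other gene, since its lowest wild-type value of 64.2 FPKM exceeded their highest. In library 3, however, its bounds of 43.2 to 167 FPKM overlapped those of Dnmt1, 5.00 to 52.0 FPKM. Dnmt1 and Uhrf1 overlapped over the wild-type tables, as did Uhrf1 and Dnmt3b, and Dnmt3a lay within the range of Dnmt3b. In the knockout the order was Dnmt1 at 61.7 FPKM, Dnmt3b at 30.7, Dnmt3l at 26.7, Uhrf1 at 21.9 and Dnmt3a at 6.71. There the bounds of Dnmt3b overlapped those of Dnmt3l and Uhrf1, while those of Dnmt3l and Uhrf1 did not overlap each other. The place of Dnmt3b rests on the locus that lies mostly outside its interval. With the widest locus inside the interval, at 9.85 FPKM, Dnmt3b stood below Dnmt3l and Uhrf1, as it did by wild-type mean. The bounds of that locus overlapped those of Dnmt3a. With the 3′ locus inside the interval, at 21.0 FPKM, its bounds of 19.2 to 22.8 FPKM overlapped those of Uhrf1 and not those of Dnmt3a. The order of Dnmt1 and Dnmt3l in the knockout turned with the locus taken for either gene. The 3′ locus of Dnmt1, at 17.0 FPKM, lay below the principal locus of Dnmt3l. The 228-base locus of Dnmt3l, at 79.5 FPKM, lay above the principal locus of Dnmt1.

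Ratios between genes inside a table do not depend on how the libraries were scaled. Dnmt3l had 2.61, 2.32, 3.69 and 2.01 times the FPKM of Dnmt1 in wild-type libraries 1 to 4, and 0.433 times in the knockout. The knockout ratio reached at most 0.488 within the deposited bounds, and the lowest wild-type ratio within them was 0.831, in library 3. Dnmt3l exceeded Dnmt1 in all 4 wild-type tables, and Dnmt1 exceeded Dnmt3l in the knockout. Against the 3′ locus of Dnmt1, Dnmt3l had 3.50, 2.42, 4.56 and 2.74 times its FPKM in the wild type and 1.57 times in the knockout. The knockout was the lowest in both cases, although against the 3′ locus Dnmt3l was the higher of the pair, and the bounds there, up to 1.80 in the knockout and from 1.49 in the wild type, overlapped.

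Against Uhrf1 the ratio of Dnmt3l was 2.90, 5.25, 3.60 and 2.18 in wild-type libraries 1 to 4 and 1.22 in the knockout. The knockout was again below every wild-type table, but its upper limit of 1.36 within the bounds passed the lower limit of library 3, 1.14. Against the 3′ locus of Uhrf1, Dnmt3l had 7.05, 5.52, 7.17 and 3.53 times its FPKM in the wild type and 1.00 times in the knockout. There the bounds did not overlap, since the knockout reached 1.12 and the wild type went down to 2.23. Dnmt1 had 1.11, 2.26, 0.975 and 1.08 times the FPKM of Uhrf1 in the wild type and 2.81 times in the knockout. Here the bounds of the knockout, 2.55 to 3.10, overlapped those of library 2, which reached 3.73.

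**Figure D3:**
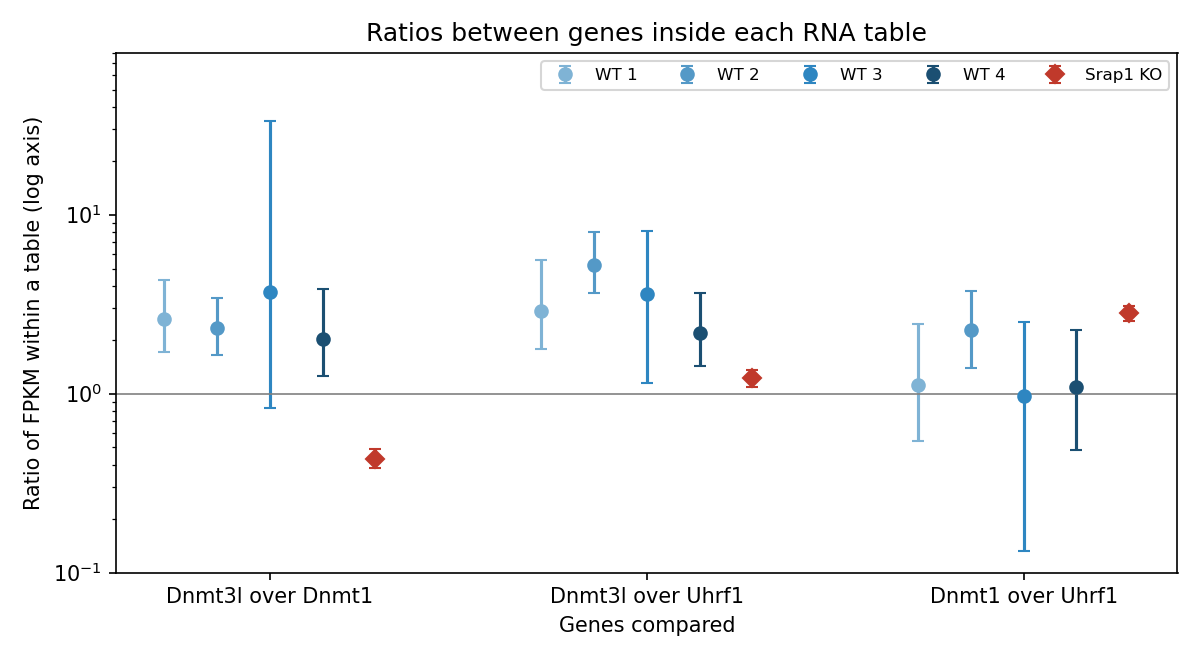
Ratio of FPKM between pairs of genes inside each table (vertical axis, log scale), for wild-type tables (circles) and the knockout (diamonds), with bars for the range that the deposited bounds of both genes allow. The ratio of Dnmt3l to Dnmt1 is 2.01 to 3.69 in the wild type and 0.433 in the knockout, and the grey line marks equal levels.

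The genes were then set beside the loci that could be compared across all tables. A gene or locus was called when 2 conditions held: no wild-type value was as far out as the knockout value on that side, and FPKM + 1 differed by at least 1 on the log2 scale. Of the 5 genes 1 was called lower, Dnmt3l, and 0 were called higher. Over 224 loci paired in all 5 tables, 16.1% were called lower, 34.4% were called higher and 50.4% were called in either direction. The count for the 5 genes is not read as different from this background. With FPKM scaled to the fragments outside the chromosome 17 locus the split of the paired loci turned, to 97 called lower and 5 called higher in place of 36 and 77, and with median centring it was 48 and 32. The median log2 ratio was -0.18 over the 5 genes and 0.48 over the paired loci, whose quartiles were -0.25 and 1.20. Of the paired loci 8.48% had a lower ratio than Dnmt3l, and 34.4% a higher one than Dnmt1. Of the genes, only Dnmt3l has its principal locus among the paired loci. The ratios of the other genes compare loci of unlike extent, so they are not like for like with the paired loci.

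Rank among the paired loci, which no scaling changes, separated the principal loci of Dnmt3l and Dnmt1 in the same way. The ranks depend on the locus taken, and the Dnmt1 loci are of unlike extent. In the knockout the 3′ locus of Dnmt1, at 17.0 FPKM, stood above no more than 15.2% of the paired loci. The 228-base locus of Dnmt3l, at 79.5 FPKM, stood above at least 50.4%. The ranks below are those of the principal loci. Dnmt3l stood above 73.7% to 87.1% of them over the wild-type tables and above 19.2% in the knockout. Dnmt1 stood above 28.6% to 33.0% in the wild type and above 50.4% in the knockout. Uhrf1 stood above 25.4%, 4.02%, 30.8% and 30.8% of them in wild-type libraries 1 to 4 and above 15.2% in the knockout, which is inside the wild-type range through library 2 alone.

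**Figure D4:**
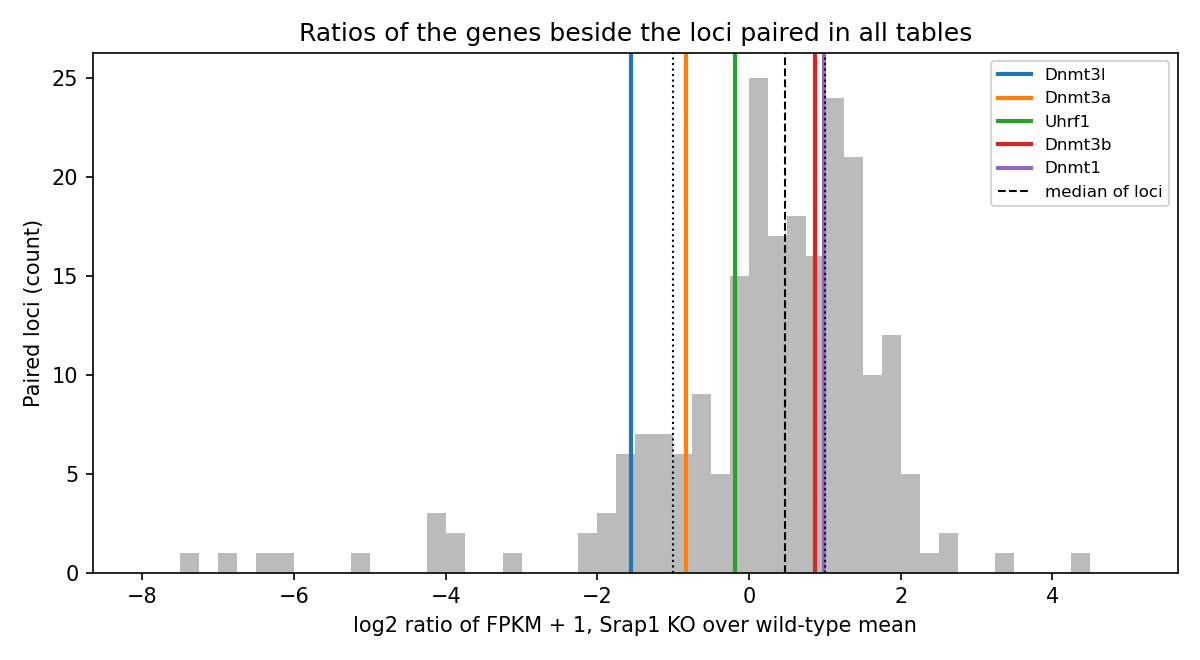
Histogram of log2 ratios of FPKM + 1 (horizontal axis, knockout over wild-type mean) for the 224 loci paired in all tables, with a line for each gene, dotted lines at the size needed for a call and a dashed line at the median of 0.48. Dnmt3l at -1.56 lies past the lower dotted line, and Dnmt1 at 0.99 next to the upper one, a value that turns to -0.32 under the scaling to fragments outside the chromosome 17 locus.

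A control DNA library of the knockout cells, precipitated with IgG, was read over the same intervals. Reads with a mapping quality of at least 30 lay at 5.40 per kb over Dnmt1, 4.82 over Dnmt3a, 4.92 over Dnmt3b, 4.82 over Dnmt3l and 4.58 over Uhrf1. These densities were 1.59 to 1.72 times the median of 10 kb bins on the same chromosome. Each gene was denser than most bins of its chromosome, Dnmt1 than 95.6% of them, Dnmt3a than 91.6%, Dnmt3b than 90.5%, Dnmt3l than 91.8% and Uhrf1 than 83.9%. Dnmt3l was neither the highest nor the lowest of the 5. The intervals span 20.3 to 108.5 kb, wider than the bins, and bins without a read were left out. Other genes and windows of like width were not read. Whether these genes differ from genes in general was therefore not tested. No base in any interval was covered by more than 4 reads. None of the 1730 windows of the IgG chromatin control overlapped a member. The share of other genes without a window was not counted, so this is not read as a trait of the members.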

How the data were processed

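RNA tables of 4 wild-type samples and 1 Srap1 KO sample were used. The authors deposited FPKM with lower and upper bounds per assembled locus, per the file headers, on build mm9. Tools listed, per the submitters' processing notes, are Cufflinks 2.2.1.0, Bowtie 0.12.8, Trim Galore 0.3.5 and MACS2 2.1.1. Libraries were amplified for 12 cycles, per the labels. The deposited IgG DIP file, which has no header, gives each read a score that was read as a mapping quality, and the deposited IgG ChIP file gives windows only. Their positions run past the ends of mm10 chromosomes and were read as mm9. Positions are printed as the files give them.

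Depth was approximated from the bounds, the distance from a value to its upper limit being read as 2 counting errors. This reading is rough. At Dnmt3l that distance was 58.9% of the level in wild-type library 3 and 12.9% to 13.8% in the others. Between wild-type tables, 76 to 94 loci per pair had ends within 5 bases, at least 300 bases and at least 10 implied fragments. These loci differed by a scaled median of 0.742 to 1.12 standard errors, as read from the bounds. The wild-type tables were therefore counted as 1 sample, and only their range and mean are given. The matched loci are a small part of each table, so this count is a cautious choice and not a finding. With 1 sample a group, no test between the groups was run and no p-value is given. Dixon's criterion was applied to the 4 wild-type values of a gene to pick out a table that stands apart. A ratio is the knockout FPKM + 1 over the wild-type mean + 1, which understates the change of low loci. Loci were paired from wild-type library 1 by best mutual overlap of at least 80%, and kept with at least 1 FPKM in 2 tables. Pairing and calls were tested on simulated data (Python 3.11.15). All simulated tables were made from the loci of wild-type library 1 with slightly trimmed ends. They lack the unlike cuts and narrow loci of the knockout, so they do not show how pairing or calls behave there.

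All 5 members are named. The members, lists and rules were chosen with earlier results of these data known, and the 3′ loci (ending within 2 kb of the 3′ end), ranks and within-table ratios after these values were seen. Other pathway genes and cell markers were not analysed here, as no annotation of mm9 was used. RefSeq promoters matched 5 of 5 genes.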

Additional observations from a re-analysis of the deposited data

Results flagged for a closer look

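Uhrf1 in wild-type library 2, at 13.8 FPKM, lay far below the other wild-type tables, which had 27.6 to 29.5 FPKM. Its gap to the nearest table was 0.882 of the whole range, above Dixon's critical value for 4 values. Of 3 genes with 4 wild-type values 1 showed this, where chance gives about 1 in 20. The criterion takes the 4 tables as separate values, although they were counted as 1 sample. The locus in library 2 began 1079 bases into the interval, against 101 to 197 bases in the other wild-type tables, so it lacks bases at the 5′ end that the others hold. Whether that accounts for the lower value was not tested. At the 3′ locus of Uhrf1 the same table, with 13.1 FPKM, was within the range of the others.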

How the results depend on the processing

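The scaling to fragments outside the chromosome 17 locus was chosen after seeing the data. Dnmt3l was below the wild-type mean under all 11 alternatives, with log2 ratios of -2.89 to -0.02, and called in 10. The exception was the locus of highest FPKM, where the knockout value lay within the wild-type range. Several of the 10 had little room to change the call. The limits on width and on the share inside the interval kept the same principal loci, so the ratio stayed at -1.56. Leaving out a wild-type table could not bring the knockout into a range that it already lay below. The count of 10 is therefore not a measure of how firm the call is. Genes called lower numbered 0 with the locus of highest FPKM, 2 with median centring (Dnmt3l and Dnmt3a) and 3 with the added scaling (Dnmt3l, Dnmt3a and Uhrf1), in place of 1. The Dnmt3a calls set the knockout against 1 wild-type value from another part of the gene, so the condition on the wild-type range set almost no limit. Median centring moved the ratio only, and the range was still read in FPKM as deposited. Genes called higher numbered 2 with the locus of highest FPKM (Dnmt1 and Dnmt3b) and 1 with a pseudocount of 0.1 (Dnmt1), in place of 0. The calls with the locus of highest FPKM rested on knockout loci of 79 bases for Dnmt1 and 133 bases for Dnmt3b. Without each wild-type table in turn the higher count was 0 to 1: without library 1 Dnmt3b was called at 1.22, and without library 4 Dnmt1 was called at 1.01. Over the paired loci, calls higher and lower were 32 and 48 with median centring, 5 and 97 with the added scaling, and 179 and 157 of 833 loci at an overlap of 50%, in place of 77 and 36 of 224. The added scaling moved the median ratio of the paired loci to -0.84. A minimum wild-type mean of 10 FPKM removed no paired locus, and Dnmt3a could not be compared without library 1. No paired analysis was possible because the knockout was 1 sample. Fewer implied fragments in the wild-type tables limit what they can show, and their part in the sparse listing of Dnmt3a and Dnmt3b was not tested.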
